A study of Mus musculus with 12 samples.

Results

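Heavy chain CDR3s that hold an N-glycosylation site were described in splenic B cells of lupus-prone mice. The CDR3, the stretch of the antibody heavy chain made where V, D and J segments are joined, was read as the residues between the conserved cysteine at the end of VH and the conserved tryptophan of J. A CDR3 of at most 22 residues was counted as a member when it held the sequon, that is asparagine, then any residue but proline, then serine or threonine. Of 216278 distinct CDR3s, 1696 (0.784%) were members, and 59126 held asparagine at all. Counted within each of 12 libraries, there were 93 to 271 members in the control SMO group and 3 to 196 in the LFPRLR SMO group.

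All mice were 14-week-old females of the MRL/lpr genotype, so the Fas mutation lpr was shared by both groups. The control group received control SMO (6 libraries) and the treated group received LFPRLR SMO (6 libraries), a splice-modulating morpholino oligomer that keeps the long form of the prolactin receptor from being made. Splenic B cell RNA was amplified with primers in the J558 VH family and in the Cμ constant region, so other VH families and switched antibodies were outside the measurement. Other B cell or non-B cell markers cannot be read from such amplicons. The labels do not say whether RNA from several mice was pooled, and p-values measure the spread between these libraries.

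In the endoplasmic reticulum, oligosaccharyltransferase can attach a glycan to the asparagine of a sequon, and the attached glycan is large beside an antibody loop. Few sequons are encoded in germline antibody V genes, so most sites in variable regions arise by somatic mutation or, in the CDR3, by the joining of segments. Glycosylated variable regions are known from follicular lymphoma and from autoantibodies in rheumatoid arthritis. A sequon in a transcript is a possible site, and whether it carried a glycan was not measured. Several mouse D segments, Ighd2-5 among them, encode tyrosine, serine, asparagine and tyrosine in a common reading frame, and related ones have glycine in place of the serine, so germline asparagine is frequent in the CDR3.

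The CDR3s below were the member with the most reads in a library or members found in the most libraries, and they are shown as coding strand nucleotides from the base after the cysteine codon, with the 9 bases of the sequon in capitals. In the first set the asparagine codon of the sequon is the aac of a Tyr-Gly-Asn stretch (tatggtaac) or a Tyr-Ser-Asn stretch (tatagtaac), and the serine lies beyond it.
Most reads in control SMO replicate 9: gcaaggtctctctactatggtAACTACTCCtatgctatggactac
Most reads in LFPRLR SMO replicates 4 and 5: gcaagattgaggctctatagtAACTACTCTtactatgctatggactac
Most reads in LFPRLR SMO replicate 7: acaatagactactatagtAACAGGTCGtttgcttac
Most reads in LFPRLR SMO replicate 8: gcgggggggtatggtAACCAGTCAgatgtc

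In the second set the serine of the sequon is the agt of a Tyr-Ser-Asn stretch, and the asparagine lies directly ahead of it.
Found in 4 libraries, with 1 read in LFPRLR SMO replicate 6: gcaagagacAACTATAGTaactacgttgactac
Found in 4 libraries, commonest in control SMO replicate 8: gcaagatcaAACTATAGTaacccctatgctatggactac

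In the third set neither residue lies in such a stretch by this letter match. The commonest members of control SMO replicates 4, 7 and 8 and a further member found in 5 libraries also belong here. They are not printed, so the printed lists do not show how frequent each set is. The first 2 printed in this set have tyrosine and serine codons (tatagt) with no asparagine codon after them. The last has a tryptophan in the middle of its sequon.
Most reads in control SMO replicate 3: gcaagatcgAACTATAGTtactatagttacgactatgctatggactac
Most reads in control SMO replicate 5: gcaagagaaAACTATAGTagcgactac
Found in 5 libraries of both groups: gcagcaAACTGGACCtggtttgcttac

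The 12 libraries differed in depth and were not independent in every respect. Control SMO libraries held 140475 to 227202 reads and 12843 to 41472 unique CDR3s of at most 22 residues. LFPRLR SMO libraries held 627 to 171560 reads and 458 to 29424 such CDR3s, and LFPRLR SMO replicate 6 was the one with 627 reads and 3 members. In 6 libraries, 3 of each group, a second version of the Cμ end was carried by 31.6% to 39.3% of the nucleotide sequences, and in the other 6 libraries by 0.112% to 2.18%. Abundant CDR3s recurred between some libraries: 3 pairs within a group shared 35 to 42 of their 50 commonest CDR3s, against at most 13 in any other pair. Those pairs were control SMO replicates 5 and 7, control SMO replicates 4 and 8, and LFPRLR SMO replicates 4 and 5. Each joined a library with much of the second Cμ end version to one with little of it. The highest other count, 13, was between LFPRLR SMO replicate 6 and control SMO replicate 4. LFPRLR SMO replicate 6 also shared 10 with LFPRLR SMO replicate 8 and 9 each with control SMO replicate 8 and LFPRLR SMO replicate 4. It shared 0 with control SMO replicates 3 and 9. The origin of this sharing was not tested. Reads carry no molecular identifiers, so the intervals of single libraries given below cover counting error only and a read count is not a count of cells.

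The share of CDR3s with a site did not differ between the groups beyond the spread of the libraries. In control SMO libraries 0.613% to 0.801% of unique CDR3s held a site (median 0.695%, n = 6), and in LFPRLR SMO libraries 0.552% to 0.797% did (median 0.661%, n = 6). The ranges overlapped over most of their width, and 4 of 6 LFPRLR SMO libraries lay below the control median. The difference in medians was -0.034 percentage points (two-sided exact Mann–Whitney U test, p = 0.589, adjusted p = 1 over 11 group comparisons). The exact 95.9% interval of the shift ran from -0.146 to 0.0948 percentage points. The 95% Wilson interval of a single library was widest in LFPRLR SMO replicate 6, where 3 of 458 CDR3s held a site (0.223% to 1.91%), and the next widest, in control SMO replicate 5, ran from 0.592% to 0.886%.

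Median shares were unlike between libraries with much and with little of the second Cμ end version, though their ranges overlapped. The 6 libraries with much of the second version had 0.552% to 0.702% of CDR3s with a site (median 0.64%), and the 6 others had 0.653% to 0.801% (median 0.743%). Within the first 6, the difference between LFPRLR SMO and control SMO was -0.111 percentage points (exact Mann–Whitney U test, p = 0.2), and within the others it was 0.0373 (exact, p = 1), where 3 against 3 cannot go below 0.1. The part of the Cμ end version in these shares was not tested.

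**Figure D1:**
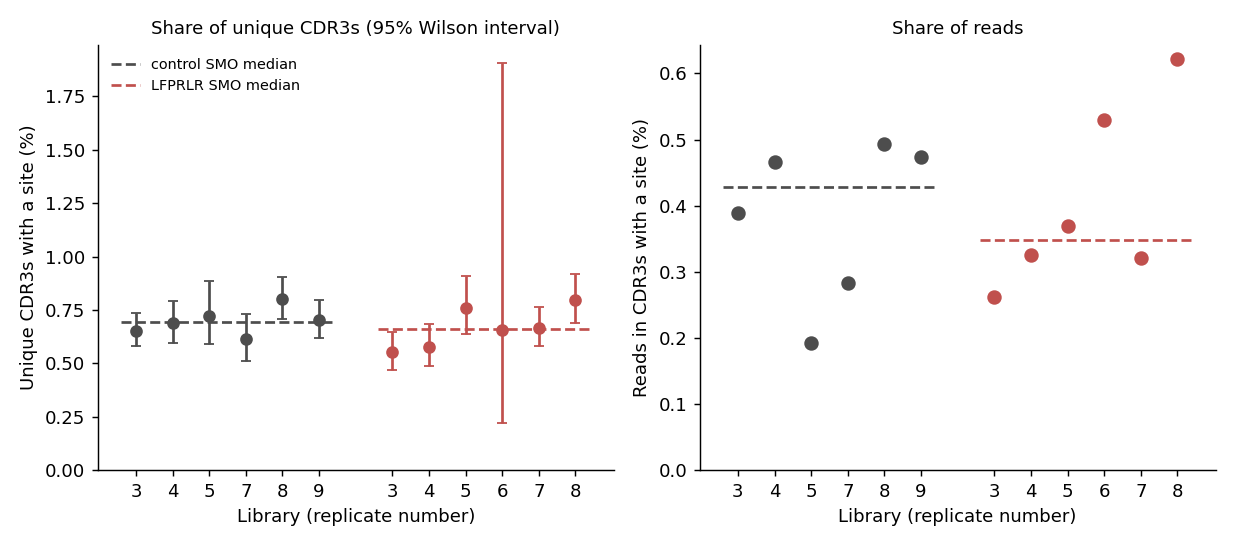
Share of unique CDR3s of at most 22 residues with a site (left, points with 95% Wilson intervals) and share of reads in them (right) in each of the 12 libraries, in percent, with dashed lines at the group medians. The left medians are 0.695% for control SMO and 0.661% for LFPRLR SMO, and the wide interval belongs to LFPRLR SMO replicate 6 with 3 members.

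By reads, members held less of a library than by unique CDR3s. They took 0.192% to 0.493% of the reads in control SMO libraries (median 0.428%) and 0.263% to 0.622% in LFPRLR SMO libraries (median 0.348%). The lowest value was that of control SMO replicate 5 and the highest that of LFPRLR SMO replicate 8, so the groups overlapped at both ends (exact Mann–Whitney U test, p = 0.937, adjusted p = 1). The shift between the groups had an exact 95.9% interval from -0.153 to 0.178 percentage points. Within the 6 libraries with the second Cμ end the difference in medians was -0.145 percentage points, and within the 6 others it was 0.14 (exact, p = 0.4 in each). No member dominated a library: the member with the most reads held 0.0121% to 0.176% of a library's reads, the latter from 1 read of 567 in LFPRLR SMO replicate 6, and at most 0.0945% elsewhere. The commonest non-member of a library, apart from LFPRLR SMO replicate 6, had 2775 to 13954 reads, and the commonest member had 16 to 167.

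Asparagine was present in far more CDR3s than the sequon. A median of 27.1% of a library's unique CDR3s held asparagine, and of those a median of 2.47% (1.9% to 2.97% over the libraries) were members. The order of the residues made a difference to the share. Serine or threonine, then any residue but proline, then asparagine, the same letters reversed, was found in a median of 1.62% of CDR3s, against 0.677% for the sequon. With alanine in place of serine or threonine the share was 2.42%, with cysteine 0.058%, and the non-acceptor form with proline in the middle was found in 0.0687%. Aspartate, which is 1 base from asparagine in its codons, headed a motif of the same shape in 13.8% of CDR3s.

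Motifs of the same shape were counted with each of the 20 residues at the first place, and asparagine ranked 16 of 20 by its median share, below tryptophan (0.802%) and histidine (0.695%) and above phenylalanine (0.448%). By exact Mann–Whitney U tests with Benjamini-Hochberg adjustment over the 20 motifs, none differed between the groups at 0.05 (0% called), and 1 of the 20, with valine first, had an unadjusted p under 0.05 (0.026, adjusted p = 0.433). The asparagine motif had an exact p of 0.589 (adjusted p = 0.785) and is thus one of 20 without a call.

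Asn-Tyr-Ser was the most frequent sequon. It made up 1023 of the 1696 distinct members (60.3%), followed by Asn-Tyr-Thr with 106, Asn-Ser-Ser with 100, Asn-Trp-Ser with 73 and Asn-Gly-Ser with 69. Tyrosine, the residue that D segments and several J segments supply, was in the middle of 66.6% of the sequons. Serine was the last residue in 1456 members and threonine in 240. By library, serine ended 85.3% to 88.4% of the sequons in control SMO libraries (median 86.9%) and 82.2% to 100% in LFPRLR SMO libraries (median 85.6%), where 100% was 3 of 3 members of replicate 6 (exact Mann–Whitney U test, p = 0.589, adjusted p = 1). Only 10 members held a second sequon. In motifs of the same shape with another first residue, the median share that ended in serine ran from 45.8% with isoleucine and 46.4% with threonine first to 91.4% with tyrosine and 94.8% with aspartate first, against 86.5% with asparagine.

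The codons of the sequon were uneven. Asparagine was written as aac in 1489 members (87.8%) and as aat in 207. Among serines, agt was used in 669 members (45.9%), tcc in 319, tct in 164, tcg in 152 and agc in 131. The agt codon is the one of the Tyr-Ser-Asn stretch.

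The residue ahead of the asparagine was serine in 521 members (30.7%), glycine in 433 (25.5%), arginine in 200 (11.8%) and glutamate in 99 (5.84%). Gly-Asn-Tyr or Ser-Asn-Tyr is a form in which germline D segments carry asparagine, and it was matched here by residues only. By nucleotides, the asparagine of the site lay in a tatagtaac or tatggtaac stretch in 22.9% of distinct members. Gly-Asn-Tyr or Ser-Asn-Tyr opened the site in 36.2% to 52.1% of members in control SMO libraries (median 41.4%). In LFPRLR SMO libraries it did so in 36.2% to 66.7% (median 42%). The value of 66.7% was 2 of 3 members in LFPRLR SMO replicate 6, and the other LFPRLR SMO libraries lay between 36.2% and 43.2% (exact Mann–Whitney U test, p = 1, adjusted p = 1).

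By nucleotides, members fell into 3 sets of the kind printed above, a division made after these values were seen. In 389 of 1696 members (22.9%) the asparagine codon of the site was inside a tatagtaac or tatggtaac stretch, in 369 (21.8%) the serine codon was inside a tatagtaac stretch directly after asparagine and tyrosine, in 1 member both held, and in 937 (55.2%) neither did. Only the coding strand was searched, in the reading frame of the site. Sites of the first set began later in the loop than the others, with the asparagine at a median position of 7 after the cysteine (quartiles 6 and 8). Sites of the second set began at a median position of 4 (quartiles 4 and 5), and the remainder at 5 (quartiles 4 and 6). Within libraries the first set made up 19.5% to 25.3% of members and the second 15.7% to 27.6%, leaving out LFPRLR SMO replicate 6 where they were 0 of 3 and 2 of 3.

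The Tyr-Ser-Asn stretch was more frequent in members than in other CDR3s that hold asparagine. A median of 35.8% of members held tatagtaac anywhere in the CDR3, against 24.8% of CDR3s with asparagine and no site and 6.55% of all non-members. For tatggtaac the order was the other way, with a median of 7.85% in members, 12.2% in CDR3s with asparagine and no site and 3.28% in all non-members. These are descriptions, since asparagine and serine both belong to the rule by which members were chosen. In 369 of 1696 members the tatagtaac stretch supplied the serine of the site itself, and tatggtaac has no serine codon to do so. A match shows only that these letters were present, and no D segment was assigned.

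Most sites began 3 to 8 residues after the cysteine. The asparagine stood at position 4 in 499 members (29.4%), at position 5 in 348 and at position 6 in 264, and 92.7% of members had it at positions 3 to 8. Position 1 held it in 3 members and positions from 9 on in 46. Counted among CDR3s long enough for a site at that place, the share starting at position 4 had a median of 0.196% over the 6 control SMO libraries (0.187% to 0.221%) and of 0.193% over 5 LFPRLR SMO libraries (0.159% to 0.246%). At position 3 the median over these 11 libraries was 0.0709%, and at position 8 it was 0.0515%. The median position per library was 4 or 5 in both groups (exact Mann–Whitney U test, p = 1, adjusted p = 1). Positions 1 and 2 of the loop are mostly encoded by the end of VH, usually as alanine and arginine.

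**Figure D2:**
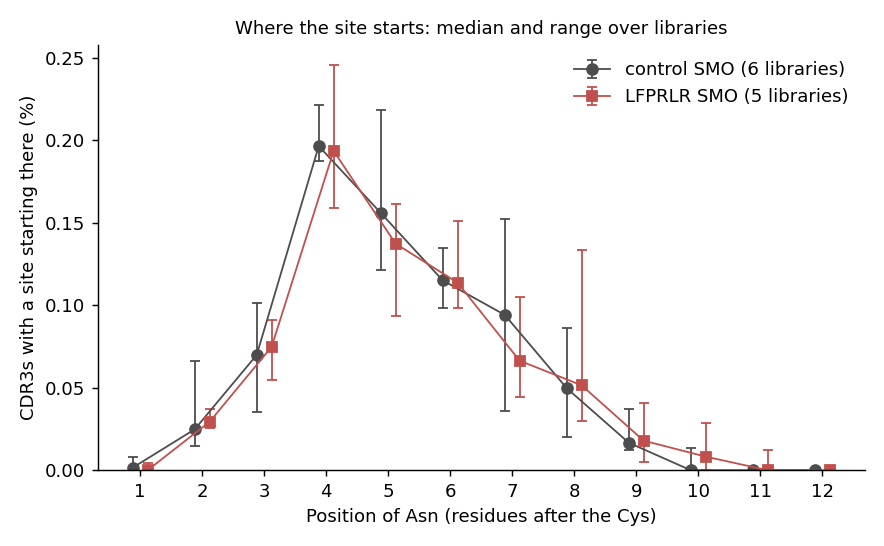
Share of CDR3s with a site that starts at each position after the cysteine, in percent of the CDR3s long enough to hold one there, as the median (points) and range (bars) over 6 control SMO and 5 LFPRLR SMO libraries, without LFPRLR SMO replicate 6. Both groups peak at position 4, with medians of 0.196% and 0.193%.

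CDR3s with a site were longer than others in every library. Their mean length was 11.9 to 13 residues over the 12 libraries, against 10.9 to 11.9 for non-members. The difference was 1.07 ± 0.345 residues (SD, n = 12) and was above 0 in 12 of 12 libraries. Against CDR3s with asparagine and no site it was 0.673 ± 0.331 residues (SD, n = 12), also above 0 in 12 of 12. A longer CDR3 has more places at which the motif can start, so length and the rule are not independent and no test is given. The median length of members was 12 or 13 residues in every library of both groups (medians 12.5 and 13, exact Mann–Whitney U test, p = 1, adjusted p = 1).

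The share of CDR3s with a site was low among short CDR3s and higher from 13 residues on. Over 11 libraries the median share was 0.189% among CDR3s of 2 to 8 residues, 0.519% at 9 and 10, 0.719% at 11 and 12, and 1.03% at 13 and 14. It was 0.911% at 15 and 16 residues and 1.06% at 17 to 22, where the libraries ranged from 0.441% to 1.86%. No site was found in CDR3s of 2 to 4 residues. At the upper limit, 7 distinct members had 20 or 21 residues and 0 of 41 distinct CDR3s of 22 residues had a site, and beyond it 3 of 60 CDR3s of over 22 residues had one, counted per library.

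**Figure D3:**
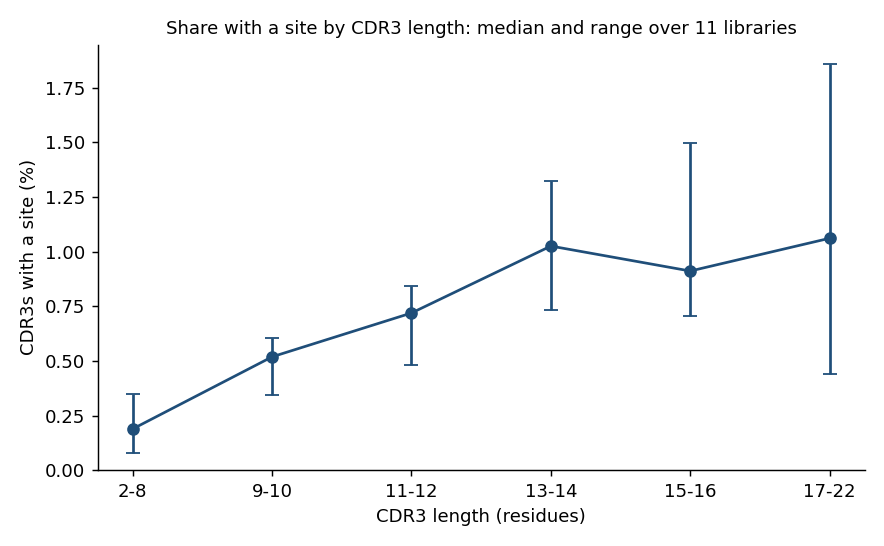
Percent of unique CDR3s with a site in bins of CDR3 length in residues, as the median (points) and range (bars) over 11 libraries, without LFPRLR SMO replicate 6. The median is 0.189% in the shortest bin and 1.03% at 13 and 14 residues.

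Members used Ighj3 more and Ighj2 less than other CDR3s. The 4 J segments, which lie on chromosome 12 and supply the end of the CDR3, were told apart by the residues from the tryptophan on. Ighj3 was joined to a median of 37.6% of members and 28.9% of non-members, and it was higher in members in 11 of 12 libraries, the exception being LFPRLR SMO replicate 6 with 0 of 3 members. Ighj2 was joined to a median of 24.2% of members and 31.9% of non-members, and it was lower in members in 11 of 12 libraries. Against CDR3s with asparagine and no site, the share of Ighj3 was also higher in members in 11 of 12 libraries, with a median of 25.9% there. Ighj4 (29.5% against 30.4%) and Ighj1 (9.07% against 8.96%) were above non-members in 5 and 6 of 12 libraries. Stated the other way, a median of 0.881% of CDR3s with Ighj3 held a site, 0.654% of those with Ighj1, 0.626% of those with Ighj4 and 0.518% of those with Ighj2. J residues inside the loop can belong to the site, so these are descriptions without a test.

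The J share of members did not differ between the groups beyond the spread. For Ighj3 the control SMO libraries ranged from 34.9% to 46.3% (median 38.8%) and the LFPRLR SMO libraries from 0% to 42.9% (median 33.7%; exact Mann–Whitney U test, p = 0.24, adjusted p = 1). Without replicate 6, whose 0 of 3 members sets no useful limit, the lowest LFPRLR SMO value was 30.5%. For Ighj2 the medians were 22.8% and 26.8% (exact, p = 0.485), for Ighj4 29.2% and 29.5% (exact, p = 1), and for Ighj1 8.52% and 9.4% (exact, p = 0.394), each with an adjusted p of 1.

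**Figure D4:**
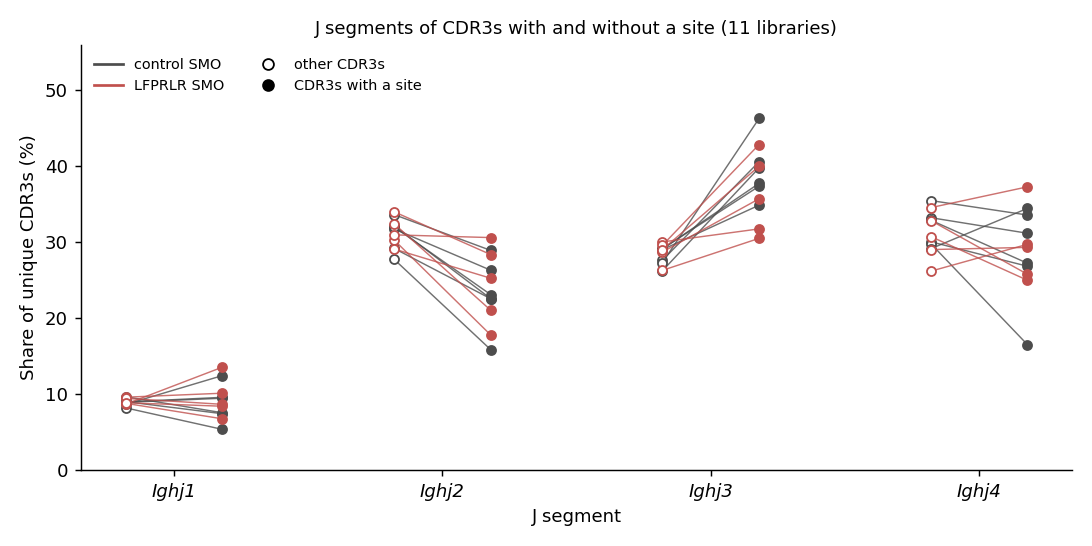
Share of each J segment, in percent, among CDR3s with a site (filled) and other CDR3s (open) of the same library, joined by a line, for 11 libraries without LFPRLR SMO replicate 6. All 11 lines rise for Ighj3 and fall for Ighj2.

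The Ighj3 share was high in all 3 sets of sites. It was 37% where the asparagine lay in a matched stretch, 34.1% where the serine did and 39.2% where neither did, counted over distinct members. By the first residues of the site, Ighj3 made up 36% of the 1129 members with Asn-Tyr, 47% of the 83 with Asn-Trp, 45.9% of the 133 with Asn-Ser and 29.5% of the 105 with Asn-Gly. In the same order, Ighj1 made up 9.39%, 8.43%, 6.02% and 7.62% of these members. Ighj3 and Ighj1 both carry a tryptophan near their start. The CDR3 printed above that was found in 5 libraries has a tryptophan both inside and directly after its site. Whether the tryptophan of Ighj3 has a part in the Ighj3 share of members was not tested.

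CDR3s with a site were less often read more than once than other CDR3s of the same library. The percentage of members with at least 2 reads was 31.1% to 50.4% in the control SMO group and 0% to 42.1% in the LFPRLR SMO group, with a median of 37.5% over all 12. For other CDR3s the median was 46.3%. The difference was below 0 in 12 of 12 libraries, from -13.2 to -2.58 percentage points, with a mean of -7.18 ± 3.26 (SD, n = 12; two-sided exact sign-flip test, p = 0.000488, the smallest it can give). It was -6.94 ± 2.59 in control SMO libraries (n = 6) and -7.42 ± 4.07 in LFPRLR SMO libraries (n = 6), each below 0 in 6 of 6 libraries (exact sign-flip test, p = 0.0312 in each, the smallest 6 libraries can give). Without LFPRLR SMO replicate 6, where 0 of 3 members had 2 reads, the mean was -6.63 ± 2.79 (n = 11). These tests take the libraries of the sharing pairs named above as separate. With each such pair averaged the mean was -7.85 (exact sign-flip test, p = 0.00391). The tests within a group were not repeated in that way, so their p-values rest on libraries that are partly alike. The share of members with at least 2 reads did not differ between the groups beyond the spread (medians 38.7% and 37.5%, exact Mann–Whitney U test, p = 0.485, adjusted p = 1).

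Length and J segment moved with membership and were measured beside this difference. With the other CDR3s weighted to the lengths of the members, the mean was -5.82 ± 3.74 percentage points and 11 of 12 libraries were below 0, LFPRLR SMO replicate 5 being at 0.133 (exact sign-flip test, p = 0.000977). With weights for length and J segment it was -5.33 ± 3.15, below 0 in 12 of 12 libraries (exact, p = 0.000488). At a threshold of 5 reads it was -4.9 ± 3.17 percentage points, also below 0 in 12 of 12.

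The tables do not separate read errors from mutated relatives, so CDR3s that differ by 1 base from a commoner CDR3 of the same library were counted. They made up a median of 6.92% of members and 7.21% of others, and members were higher in 6 of 12 libraries. With them left out, the difference in read support was -7.03 ± 3.55 percentage points, below 0 in 12 of 12 libraries (exact sign-flip test, p = 0.000488), and the share of CDR3s with a site was 0.56% to 0.808%. Among the 1958 members counted per library, 93 (4.75%) had a commoner neighbour without a site. The differing base lay in the serine or threonine codon in 53 of these, in the asparagine codon in 39 and in the middle codon in 1. Where it lay in the asparagine codon, the commoner CDR3 had aspartate in 15 and threonine in 9.

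The other motifs of the same shape give the background of this measure. Of the 20 motifs, 5 (25%) had a lower share with at least 2 reads than CDR3s without the motif at an adjusted p under 0.05 (exact sign-flip test, Benjamini-Hochberg over 20), those with asparagine, aspartate, glycine, valine and tyrosine first. The asparagine motif had the lowest mean of the 20, -7.18 percentage points against a median of -1.15, and the highest was 3.21 with lysine first. At equal lengths 1 of 20 (5%) was called, that with asparagine first (-5.82, adjusted p = 0.0195 by the exact sign-flip test), where the median over the 20 was 0.0677 and the next lowest was -3.52 with cysteine first. The motifs overlap in the CDR3s that hold them, and the differences between motifs were not tested. The tests over motifs, and those with weights or without near neighbours, also took the libraries of the sharing pairs as separate. They were not repeated with those pairs averaged, so their p-values rest on libraries that are partly alike.

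**Figure D5:**
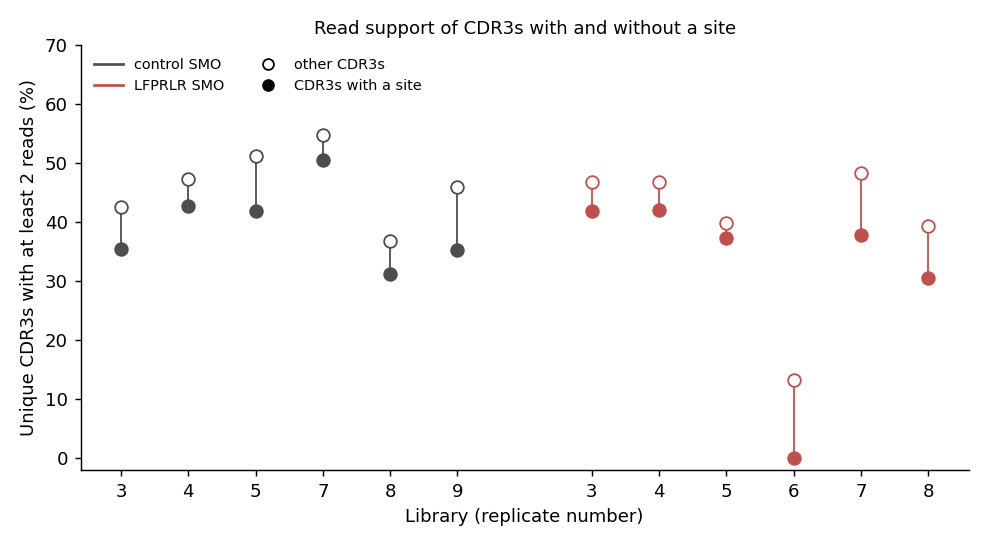
Percent of unique CDR3s with at least 2 reads among CDR3s with a site (filled) and other CDR3s (open) in each library. The filled point is below the open one in 12 of 12 libraries, and LFPRLR SMO replicate 6 lies at 0% with 3 members.

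Most members were found in a single library. Of 1696 distinct members, 1501 (88.5%) were in 1 library, 145 in 2, 35 in 3, 13 in 4 and 2 in 5, and 1049 (61.9%) had 1 read in all libraries together. For comparison, 11.5% of members and 18.3% of the 214582 distinct non-members were in more than 1 library. Members found in both groups numbered 40 (2.36%), against 7.28% of non-members, 980 were found in control SMO libraries alone and 676 in LFPRLR SMO libraries alone. The libraries hold unequal numbers of CDR3s, so these counts are no comparison of the groups. Members were also longer and less often read more than once than non-members, and sharing was not compared at equal lengths or reads.

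Members were shared in the pairs of libraries named above and in others. Control SMO replicates 5 and 7 shared 32 members, which is 34.4% of the former's and 26.4% of the latter's, and control SMO replicates 4 and 8 shared 44, or 23.2% and 17.1%. LFPRLR SMO replicates 4 and 5 shared 26, or 19.5% and 22%. Over the 63 pairs outside those 3, the median was 2 shared members and the highest 31, between control SMO replicates 4 and 9. All 3 members of LFPRLR SMO replicate 6 were also found in each of control SMO replicates 4, 8 and 9, and 1 of them in LFPRLR SMO replicate 5.

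The widely found members had most of their reads in 1 or 2 libraries. The one printed above with Asn-Trp-Thr had 33 reads in LFPRLR SMO replicate 3, 26 in LFPRLR SMO replicate 4, 2 in control SMO replicate 7 and 1 each in control SMO replicate 4 and LFPRLR SMO replicate 7. The commonest member of control SMO replicate 9 had 167 reads there, 17 in control SMO replicate 4, 2 in LFPRLR SMO replicate 3 and 1 in LFPRLR SMO replicate 7. The member shared with LFPRLR SMO replicate 6 at 1 read had 50 reads in control SMO replicate 8, 23 in control SMO replicate 4 and 2 in control SMO replicate 9. The member printed for LFPRLR SMO replicates 4 and 5 had 29 and 132 reads in them and 2 in LFPRLR SMO replicate 7. The commonest members of control SMO replicate 3 (66 reads), LFPRLR SMO replicate 7 (51 reads) and LFPRLR SMO replicate 8 (137 reads) were each found in that library alone. Whether low counts in a further library are separate cells or reads carried over between libraries was not tested.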

How the data were processed

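Each library came with a pair of tables from the authors, in which distinct nucleotide sequences and distinct translations stand beside their reads, as whole-number counts without normalization. Amplicons were sequenced on a MiSeq, and the merging, trimming and filtering of reads are not given in the sources used here. Translations without a stop were searched for the cysteine after 2 tyrosines or phenylalanines, at residues 16 to 30, and for the last tryptophan-glycine motif of J. Each CDR3 counted once per library. Nucleotides came from the matching tables, and J segment names from RefSeq (GRCm38.p6).

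Python 3.11.15, NumPy 2.4.6 and SciPy 1.17.1 were used, and the code was tested on simulated data. Groups, taken from the treatment labels, were compared by two-sided exact Mann–Whitney U tests over 924 arrangements, with Benjamini-Hochberg adjustment over 11 comparisons. The member with the most reads per library and the 6 in the most libraries were named, 13 CDR3s in all, of which 9 are printed. Alternatives were counting translations, at least 2 reads, equal depth (458 CDR3s per library, 100 draws), means, same-numbered pairs, library sets, averaged pairs, nucleotide tables, a proline rule and each library left out. Lengths, J segments, near neighbours and 12843 CDR3s per library were added after seeing the data. Members and lists were chosen with earlier results of these data known.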

Additional observations from a re-analysis of the deposited data

Results flagged for a closer look

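LFPRLR SMO replicate 6, with 627 reads and 3 members, lay apart from the other LFPRLR SMO libraries in 4 measures. Gly-Asn-Tyr or Ser-Asn-Tyr opened the site in 66.7% of its members, against 36.2% to 43.2% in the others. The share of members with at least 2 reads was 0%, against 30.5% to 42.1%. Ighj1 made up 33.3% of its members, against 6.77% to 13.6%, and Ighj3 0%, against 30.5% to 42.9%. With 3 members a share can take only 4 values, and each of these measures is given with its range without that library in the text. The median position of asparagine was 4 in control SMO replicate 5 and 5 in the other 5 control SMO libraries. In all, 5 of 24 groups of 6 values had a sample this far from the rest, with a gap of 0.712 to 1 of the range. The usual rate by chance is about 1 in 20. Since 4 of the 5 come from the library with 3 members, they are not independent, and the count cannot be set against that rate.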

How the results depend on the processing

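Of 253 recomputed group differences, 225 did not turn sign and none had an adjusted or unadjusted p under 0.05 (smallest adjusted p = 0.601, exact tests). A difference of 0 was counted as not turned, and the median position of asparagine, with a reported difference of 0, could not turn. The share of CDR3s with a site and the Ighj3 share turned sign under none of their alternatives. The former became 0 at the equal depth of 458 CDR3s per library, where LFPRLR SMO replicate 6 has 3 members. At 12843 CDR3s per library, over the other 11 libraries, it was -0.0273. Taken apart by the Cμ end version, the share of CDR3s had differences of both signs (-0.111 and 0.0373). Values below 0 are lower in LFPRLR SMO libraries, in percentage points or residues. For Gly-Asn-Tyr or Ser-Asn-Tyr the sign turned with at least 2 reads (-6.6), no proline after the site (-0.932) and near neighbours left out (-2.06), and leaving out 1 library gave -0.414 to 1.66. Median length became -0.5 when translations were counted, -0.25 with the proline rule and -0.5 without near neighbours. The share of reads became 0.0219 by means and serine 0.801. At 458 CDR3s per library the share of reads became 0.00159 and Ighj2 -10. At 12843 CDR3s per library, over 11 libraries, these 2 were -0.0671 and 2.05 and had not turned. Ighj4 became -4.26 with at least 2 reads, -0.58 with averaged pairs and -0.752 without near neighbours, and leaving out 1 library gave -1.66 to 2.29. The share of members with at least 2 reads became 1.6 with averaged pairs, and -4.41 to 2.1 with 1 library left out, above 0 without control SMO replicate 4, 5 or 7. Ighj1 gave -0.0694 to 1.84 with 1 library left out. The cause was not tested.

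Read support kept its sign and its side of 0.05 in 18 alternatives (-7.85 to -4.9, largest exact p = 0.00391, with averaged pairs), and with 1 library left out it was -7.6 to -6.63. The count of motifs called between groups was 0 in each of 13 alternatives (smallest adjusted p = 0.0866, exact tests).

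The 5 same-numbered pairs gave a paired difference of -0.00458 for the share of CDR3s (exact sign-flip test, p = 0.438, where 5 pairs cannot go below 0.0625). With this replicate block the share of reads turned to 0.037 and Gly-Asn-Tyr or Ser-Asn-Tyr to -4.09. Deviations of same-numbered libraries correlated between -0.667 and 0.707 over the 11 measures (0.707 for the share of CDR3s). In 4 of the 5 pairs both libraries have the same Cμ end version, and the labels tie the numbers to no shared animal or batch.

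At least 2 reads left LFPRLR SMO replicate 6 without members, and its member measures were then taken over 11 libraries. The share of members with at least 2 reads has no such alternative.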
